A study of Mus musculus with 24 samples.

Results

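A set of 34 genes that encode glutamate receptor subunits and the scaffold proteins beneath them were followed through 4 stages of development in 3 kinds of cortical projection neuron. They were taken by gene symbol, as listed for the AMPA, delta, kainate, NMDA and metabotropic receptor families and for the Dlg, Shank and Homer scaffolds, and all 34 were found among the 32310 entries of the deposited table. The rule uses symbols and no measured value. The neurons were purified by FACS, a fluorescence-based cell sort, from CD1 mouse cortex (CD1 is an outbred strain), and the labels name no treatment or mutation in any group. Callosal projection neurons send their axons to the other hemisphere, subcerebral ones to the spinal cord and brainstem, and corticothalamic ones to the thalamus. Each kind was taken before birth at E15, E16 and E18 (embryonic days) and after it at P1 (postnatal day 1), which makes 12 groups of 2 libraries. The table holds a single value per group, so no spread between libraries can be given for any level below. The sources used here do not say whether the 2 libraries came from separate animals, how many animals were pooled or which markers drove the sort.

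Glutamate is the main excitatory transmitter of the cortex. AMPA, kainate and NMDA receptors are ion channels built from several subunits, AMPA receptors carrying the fast current and NMDA receptors a slower, calcium-permeable one, whereas metabotropic receptors act through G proteins. Dlg, Shank and Homer proteins form layers of the postsynaptic density, the protein meshwork that holds receptors opposite the release site. At these stages many cortical projection neurons are still migrating or extending axons and dendrites and have formed few synapses.

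Values are in FPKM, fragments scaled by transcript length and by the mapped total, so levels of different genes are compared per length. In each sentence that gives 4 values for a subtype they run E15, E16, E18 and P1. Differences between groups are differences in log2(FPKM + 1) with a standard error (SE), fitted with limma over all 12 values with stage and subtype as terms, and a gene is called where its adjusted p over the 13946 genes tested is under 0.05. Adding 1 FPKM understates the change of genes near or below that level. The SE and p describe whether a difference was even across the 4 stages or the 3 subtypes, not the spread between libraries. Of the 34 genes, 31 passed the filter of at least 1 FPKM in at least 2 of the 12 groups, and Grin2a, Grin2c and Grm6 did not.

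The subtype genes named here were highest under the label they mark at every stage, but some were also present in other subtypes. Cux2 was at 59.1 to 104 FPKM in callosal neurons, at 1.26 to 3.07 in subcerebral and at 3.12 to 6.803 in corticothalamic neurons. Bcl11b was at 1.005 to 6.94 FPKM in callosal, 104 to 168 in subcerebral and 32.1 to 97.1 in corticothalamic neurons, and Fezf2, highest in subcerebral neurons at every stage, was at 127 to 366 FPKM there. Outside subcerebral neurons, Fezf2 was at 9.85 to 65.9 FPKM in callosal neurons, highest at E15, and at 65.8 to 125 in corticothalamic neurons. Tle4 and Foxp2 were highest in corticothalamic neurons, at 192 to 212 and 27.3 to 41.5 FPKM. In subcerebral neurons Tle4 was at 65.3, 23.0, 11.6 and 11.3 FPKM, and Foxp2 was at 5.60 to 9.86. The E15 subcerebral group thus held more Tle4 than the later subcerebral groups. Markers of other cell types were uneven across the groups. Among 10 microglial genes, 9 were highest in E16 callosal neurons, and their summed level was 5.08 to 41.8 FPKM in callosal, 4.13 to 7.43 in subcerebral and 5.75 to 8.97 in corticothalamic neurons. Of 9 interneuron genes, 7 were highest in E15 callosal neurons, where the sum without Npy was 68.3 FPKM, against 2.78 to 30.6 in the other groups. Npy, a neuropeptide gene of that list, was at 15.6, 119, 233 and 394 FPKM in callosal neurons, 8.13, 47.4, 149.8 and 415 in subcerebral neurons and 81.5, 238, 517 and 687 in corticothalamic neurons. Genes of proliferating cells and radial glia summed to 31.1 to 68.0 FPKM in callosal, 32.7 to 45.2 in subcerebral and 18.3 to 77.6 in corticothalamic neurons, and of the 9 tested 7 were lower and 1, Hes1, was higher at P1 than at E15. Vim held the highest single value of that list, and was at 7.25 to 29.7 FPKM in callosal, 11.4 to 23.3 in subcerebral and 3.86 to 28.1 in corticothalamic neurons. Aldh1l1, Gfap, Aqp4 and S100b (astrocytes), Olig2, Pdgfra, Cspg4 and Sox10 (oligodendrocyte lineage), 5 of 7 vascular genes, and Trp73 and Lhx5 (Cajal-Retzius cells) were below 1 FPKM in every group. Other genes of the same lists were not: over the 12 groups Slc1a3 ran over 1.68 to 14.2 and Aldoc over 0.968 to 5.36 FPKM (astrocytes), Mbp over 3.06 to 11.6 (oligodendrocyte lineage) and Col4a1 over 2.72 to 8.69 (vascular cells). Reln, a Cajal-Retzius gene, was at 15.1, 2.31, 3.44 and 2.77 FPKM in callosal neurons, 4.04, 12.7, 25.5 and 44.2 in subcerebral neurons and 3.697, 5.98, 7.56 and 9.195 in corticothalamic neurons. Of the 3 genes tested from that list, 2 were higher in callosal neurons when set against subcerebral ones. These were Calb2 and A930038C07Rik (Ndnf), which did not exceed 1.43 and 2.23 FPKM in any group, and not Reln. The part of these cells in the results below was not tested. In sorted bulk RNA, fewer cells of a type and less RNA per cell cannot be told apart.

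Grik3, Grm2, Grm3 and Grin1 carry the clearest patterns below, the first 3 between subtypes and the last between stages, and their promoter sequences are shown for that reason. Promoters of 23 of the 34 genes were matched in RefSeq (GRCm38.p6), each 300 bases long, 250 before and 50 after the gene's start, 5′ to 3′ on the gene's own strand. Capitals mark every GC box (GGGCGG on either strand), the element bound by Sp-family factors in many promoters that lack a TATA box. Grik3 lies at chr4:125490446-125490745 on the plus strand, and Grm2 at chr9:106656060-106656359, Grm3 at chr5:9725303-9725602 and Grin1 at chr2:25319138-25319437 on the minus strand.
Grik3: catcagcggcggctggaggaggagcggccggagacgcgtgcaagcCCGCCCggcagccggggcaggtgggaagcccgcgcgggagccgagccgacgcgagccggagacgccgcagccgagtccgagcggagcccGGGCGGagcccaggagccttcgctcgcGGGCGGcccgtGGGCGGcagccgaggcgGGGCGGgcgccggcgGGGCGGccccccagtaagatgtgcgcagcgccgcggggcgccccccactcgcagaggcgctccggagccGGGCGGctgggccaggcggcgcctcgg
Grm2: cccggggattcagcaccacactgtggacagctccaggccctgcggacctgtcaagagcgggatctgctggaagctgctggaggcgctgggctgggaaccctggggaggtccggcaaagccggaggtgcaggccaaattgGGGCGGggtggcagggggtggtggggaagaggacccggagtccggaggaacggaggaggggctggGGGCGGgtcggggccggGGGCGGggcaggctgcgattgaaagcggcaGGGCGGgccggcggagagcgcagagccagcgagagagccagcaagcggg
Grm3: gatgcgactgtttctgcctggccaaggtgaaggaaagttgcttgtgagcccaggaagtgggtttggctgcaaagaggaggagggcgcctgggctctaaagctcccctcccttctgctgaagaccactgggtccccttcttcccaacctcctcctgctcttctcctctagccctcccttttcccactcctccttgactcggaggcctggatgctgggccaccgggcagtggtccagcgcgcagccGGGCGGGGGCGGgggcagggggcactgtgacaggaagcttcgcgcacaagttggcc
Grin1: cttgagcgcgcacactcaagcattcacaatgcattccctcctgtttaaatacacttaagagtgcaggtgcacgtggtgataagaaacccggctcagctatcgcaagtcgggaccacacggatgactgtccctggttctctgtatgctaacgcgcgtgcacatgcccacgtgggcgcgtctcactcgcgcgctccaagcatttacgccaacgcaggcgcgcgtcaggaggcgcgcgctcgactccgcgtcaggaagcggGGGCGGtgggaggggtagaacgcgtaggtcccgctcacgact
The Grik3 window held 7 GC boxes in 82% G and C bases, the Grm2 window 4 in 72%, the Grm3 window 2 in 63.7% and the Grin1 window 1 in 60.7%. Of 32851 promoters of this length, 35.7% held at least 1. The E-box letters CANNTG, which any basic helix-loop-helix factor may bind, occurred 4 times in the Grin1 window, once in that of Grik3 and not in the other two, against 72.3% of promoters with at least 1. The letters TATAAA were in none of the 4 windows and in 13.6% of promoters. Matches were counted on both strands, overlapping matches were each counted and a base could belong to several, and a match is a description of the letters and not a site shown to be used.

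Levels differed widely among the 34 genes. Ranked by the median over the 12 groups, Gria2 came first at 133.9 FPKM, followed by Grik5 at 82.8, Dlg4 at 82.4 and Shank1 at 81.7, and then by Dlg2 at 45.5 FPKM. At the other end Grik1, Grin2a, Grin2c and Grm6 had medians of 0.398, 0.169, 0.144 and 0.00542 FPKM. Grik5, Dlg4 and Shank1 lie too close to be ordered, since the range of each over the 12 groups covers the medians of the other two.

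**Figure D1:**
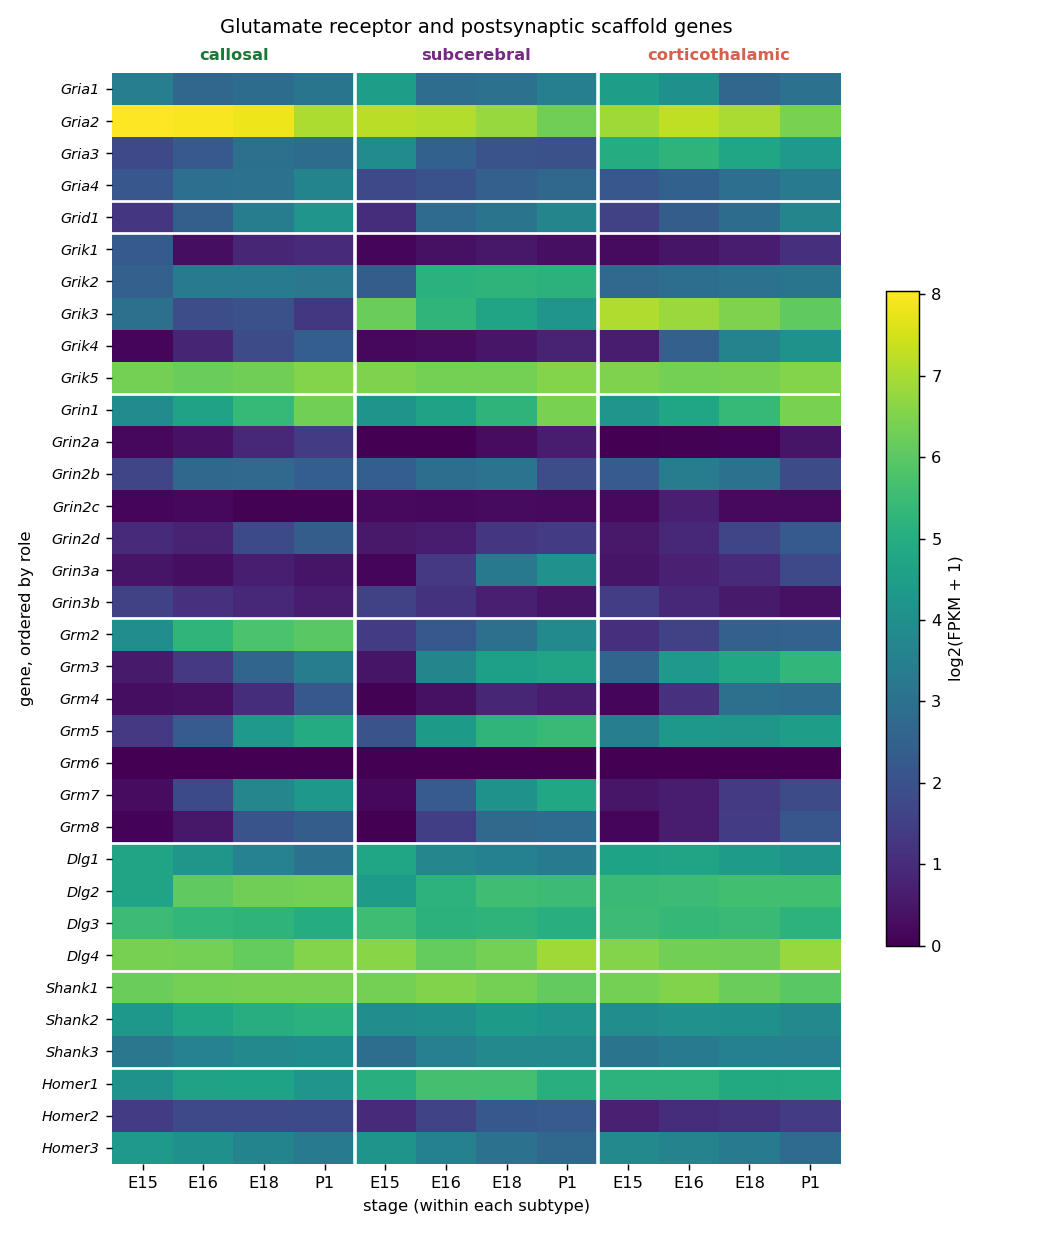
Level of each of the 34 genes, as log2(FPKM + 1) by colour, in callosal, subcerebral and corticothalamic neurons, each from E15 to P1, with genes ordered by role and 1 pooled value per cell of the map. Gria2, Grik5, Dlg4 and Shank1 are bright in every group, whereas Grik3, Grm2, Gria3 and Grin3a are bright in some subtypes and faint in others.

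AMPA receptor genes were dominated by Gria2, the subunit whose edited form keeps the channel nearly impermeable to calcium. Gria2 was at 262, 246, 225 and 131 FPKM in callosal neurons, at 148, 137, 110.4 and 77.3 in subcerebral neurons and at 117, 153, 128 and 85.6 in corticothalamic neurons. Callosal neurons held the highest value at each stage, 1.77-fold that of subcerebral neurons at E15 and 1.695-fold at P1, and all 3 subtypes had their lowest value at P1. The callosal level exceeded the subcerebral by 0.86 ± 0.10 log2 units (limma adjusted p = 0.000885) and the corticothalamic by 0.82 ± 0.10 (limma adjusted p = 0.000678). Subcerebral and corticothalamic neurons were not called different, at -0.04 ± 0.10 log2 units (limma adjusted p = 0.762). Gria2 fell by P1 in each subtype, with a difference of -0.79 ± 0.12 log2 units against E15 (limma adjusted p = 0.000408), and its mean change was largest between E18 and P1.

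Gria3, another AMPA subunit, was highest in corticothalamic neurons at every stage. Its level was 2.46, 3.77, 6.78 and 6.17 FPKM in callosal neurons, 13.9, 4.698, 3.204 and 3.02 in subcerebral neurons and 30.8, 36.5, 26.2 and 19.4 in corticothalamic neurons. The lowest corticothalamic value lay above all 8 values of the other subtypes, the nearest of which was the subcerebral one at E15. The callosal difference from corticothalamic was -2.37 ± 0.44 log2 units (limma adjusted p = 0.00489), and the subcerebral difference from corticothalamic was -2.21 ± 0.44 (limma adjusted p = 0.0119). A second entry of the table under an older name of this gene, GluR alpha3, differed by -2.38 ± 0.42 between callosal and corticothalamic neurons and by -2.06 ± 0.42 between subcerebral and corticothalamic neurons (limma adjusted p = 0.00384 and 0.0125). Between stages Gria3 was not called (-0.49 ± 0.51, limma adjusted p = 0.413).

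Gria4 was at 3.51, 6.73, 7.15 and 11.4 FPKM in callosal neurons, 2.41, 3.04, 4.58 and 5.45 in subcerebral neurons and 3.54, 4.59, 6.68 and 8.94 in corticothalamic neurons. It rose at every step in all 3 subtypes, by 1.17 ± 0.12 log2 units at P1 against E15 (limma adjusted p = 5.64e-05), and subcerebral neurons held the lowest value at each stage. The callosal level exceeded the subcerebral by 0.71 ± 0.10 (limma adjusted p = 0.00224), and the subcerebral difference from corticothalamic was -0.49 ± 0.10 (limma adjusted p = 0.0131). The older-name entry glur-4 rose less, by 0.52 ± 0.11 (limma adjusted p = 0.00354). From E18 to P1 it fell from 5.02 to 4.68 FPKM in subcerebral and from 8.02 to 7.43 in corticothalamic neurons. It was also called higher in callosal than in corticothalamic neurons (0.37 ± 0.10, limma adjusted p = 0.0222), where Gria4 was not (0.22 ± 0.10, limma adjusted p = 0.142). Gria1, the subunit most tied to activity-driven insertion in the adult, ranged over 5.29 to 9.87 FPKM in callosal, 6.36 to 21.5 in subcerebral and 5.35 to 21.1 in corticothalamic neurons. It was lower at P1 than at E15 in all 3 subtypes (-0.93 ± 0.33, limma adjusted p = 0.0344) and was called between no subtypes. The Gria3 and Gria4 calls between subcerebral and corticothalamic neurons ended without E16, E18 or P1, with limma adjusted p of 0.0533 to 0.0951 and 0.0635 to 0.0997, and the Gria3 call against callosal neurons ended without E16 (0.0515). The Gria1 stage call ended without subcerebral (0.144) or corticothalamic neurons (0.0519).

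As a share of the summed FPKM of the 4 AMPA genes, Gria2 took 83.8 to 94.3% in callosal, 79.7 to 90.7% in subcerebral and 67.8 to 77.0% in corticothalamic neurons. Gria3 took 0.884 to 3.94% in callosal, 2.56 to 7.46% in subcerebral and 15.8 to 17.9% in corticothalamic neurons. The table lists part of the Gria1, Gria3 and Gria4 signal under the older names glur-1, GluR alpha3 and glur-4. With these added, Gria2 took 71.7 to 89.0% in callosal, 65.3 to 82.6% in subcerebral and 51.6 to 60.9% in corticothalamic neurons, so the shares depend on how reads were divided among such entries while the corticothalamic share stayed the lowest at every stage.

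The delta receptor gene Grid1 encodes a synapse-organising relative of the ionotropic receptors. It was at 1.42, 4.45, 9.37 and 17.8 FPKM in callosal neurons, 1.095, 5.98, 7.55 and 11.7 in subcerebral neurons and 1.95, 4.19, 6.21 and 11.9 in corticothalamic neurons. Every subtype rose at every step, so that the lowest P1 value was above all E15, E16 and E18 values, and P1 exceeded E15 by 2.56 ± 0.20 log2 units (limma adjusted p = 1.75e-05). No subtype comparison called it.

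The widest subtype difference of the 31 genes tested was that of a kainate receptor gene. Grik3, a subunit that forms channels of low glutamate affinity, was at 6.86, 2.696, 3.005 and 1.48 FPKM in callosal neurons, 72.8, 37.3, 25.1 and 17.4 in subcerebral neurons and 134, 112, 89.4 and 66.8 in corticothalamic neurons. At each stage the order was corticothalamic, subcerebral, callosal, and the highest callosal value was below the lowest subcerebral value. At P1 the callosal level was 45.01-fold lower than the corticothalamic and 11.7-fold lower than the subcerebral one. The difference was -3.05 ± 0.17 log2 units for callosal against subcerebral neurons (limma adjusted p = 3.36e-05), -4.57 ± 0.17 for callosal against corticothalamic neurons (limma adjusted p = 2.91e-06) and -1.52 ± 0.17 for subcerebral against corticothalamic neurons (limma adjusted p = 0.00168). Levels also fell with age in all 3 subtypes, with a difference of -1.55 ± 0.19 at P1 against E15 (limma adjusted p = 0.00017), and at P1 the subcerebral level was 4.19-fold lower than at E15, the corticothalamic 2.0-fold lower. All 4 Grik3 calls held under every alternative tried.

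Grik2, the related low-affinity subunit, separated subcerebral neurons after E15. Its level was 4.53, 8.74, 9.24 and 8.31 FPKM in callosal neurons, 4.22, 34.3, 36.5 and 34.98 in subcerebral neurons and 5.67, 6.47, 6.93 and 7.65 in corticothalamic neurons. At E15 the subcerebral value was the lowest of the 3, and from E16 on it lay within 34.3 to 36.5 FPKM, above every value of the other subtypes. Callosal neurons differed from subcerebral by -1.40 ± 0.40 log2 units (limma adjusted p = 0.0328) and subcerebral neurons exceeded corticothalamic by 1.55 ± 0.40 (limma adjusted p = 0.0262). Both calls ended without E16, E18 or P1 (limma adjusted p 0.151 to 0.172 and 0.123 to 0.175), and the rise at P1 (1.30 ± 0.46, limma adjusted p = 0.0344) ended without callosal neurons (0.0935). Without E15 the 2 subtype calls held (limma adjusted p = 3.01e-05 and 5.9e-05). Over all genes, 44.7 and 45.3% were called in these comparisons without E15, against 29.3 and 27.5% with all values.

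Grik4 and Grik5 encode the high-affinity subunits, which form channels only together with a low-affinity partner. Grik4 was at 0.113, 0.765, 2.602 and 4.32 FPKM in callosal neurons, 0.127, 0.203, 0.414 and 0.713 in subcerebral neurons and 0.538, 4.49, 11.1 and 16.5 in corticothalamic neurons. It rose at every step in all 3 subtypes (2.12 ± 0.47 log2 units at P1 against E15, limma adjusted p = 0.00374) but stayed below 1 FPKM in subcerebral neurons, and the stage call ended without callosal neurons (0.05). Callosal neurons differed from corticothalamic by -1.39 ± 0.40 (limma adjusted p = 0.0308) and subcerebral from corticothalamic by -2.27 ± 0.40 (limma adjusted p = 0.00844), both calls ending without E16, E18 or P1 (0.0788 to 0.153 and 0.0527 to 0.0911). Grik5 was at 81.8, 74.2, 77.8 and 92.9 FPKM in callosal neurons, 89.01, 81.8, 80.4 and 93.2 in subcerebral neurons and 88.7, 81.1, 83.8 and 93.5 in corticothalamic neurons. These 12 values lay within 74.2 to 93.5 FPKM and no comparison called the gene; the differences were -0.08 ± 0.05 log2 units for callosal against subcerebral, -0.09 ± 0.05 for callosal against corticothalamic and 0.11 ± 0.06 for P1 against E15 (limma adjusted p = 0.241, 0.19 and 0.112). Grik1, expressed mainly by interneurons in the adult cortex, was at 3.84 FPKM in E15 callosal neurons, at 0.232 to 0.994 in callosal neurons at the later stages, and at 0.0761 to 0.431 in subcerebral and 0.172 to 1.11 in corticothalamic neurons. That E15 callosal group is the one where 7 of 9 interneuron genes were highest, Gad1 at 7.53 FPKM among them, and their part in the Grik1 value was not tested.

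The mixture of kainate genes differed between subtypes. Grik5 took 83.2 to 86.0% of the summed kainate FPKM in callosal, 53.2 to 63.6% in subcerebral and 38.8 to 50.4% in corticothalamic neurons, although its own level stayed within 74.2 to 93.5 FPKM. Grik3 took 1.37 to 7.07% in callosal, 11.9 to 43.8% in subcerebral and 36.0 to 58.4% in corticothalamic neurons. In subcerebral neurons the Grik2 share was 2.54% at E15 and 22.3 to 25.6% at the 3 later stages.

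**Figure D2:**
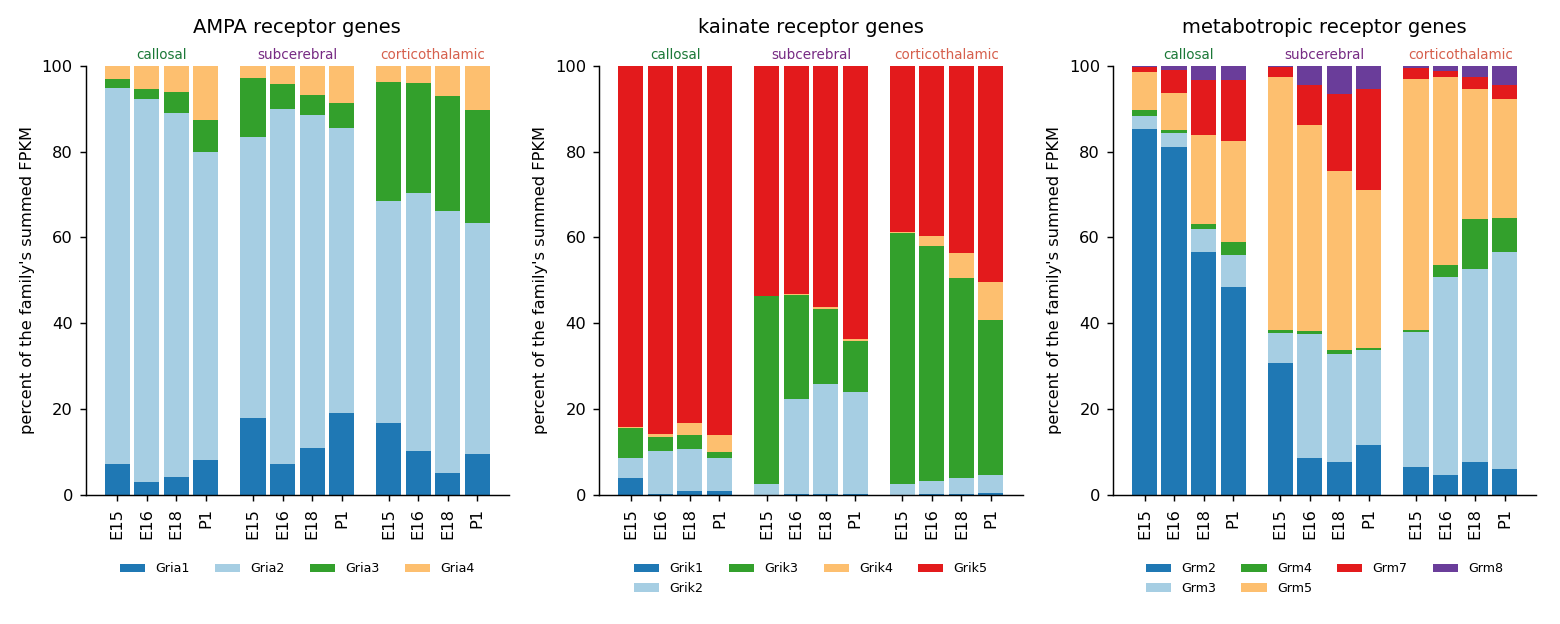
Percent of each receptor family's summed FPKM taken by each gene, for AMPA (entries under older names added to their gene), kainate and metabotropic receptors (as deposited), in callosal, subcerebral and corticothalamic neurons from E15 to P1; genes under 1% in every group are left out. Grik5 fills 83.2 to 86.0% of the callosal kainate bars, and Grm2 fills 48.5 to 85.3% of the callosal metabotropic bars.

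Of the 5 NMDA receptor genes tested, 4 were called between stages, 2 between callosal and subcerebral neurons, 1 between callosal and corticothalamic neurons and 0 between subcerebral and corticothalamic neurons. Of all genes, 67.4% were called between stages and 29.3, 31.3 and 27.5% in the 3 subtype comparisons in that order. Grin1, the subunit that every NMDA receptor needs, was at 13.6, 23.8, 40.8 and 78.6 FPKM in callosal neurons, 16.98, 23.8, 36.8 and 85.2 in subcerebral neurons and 17.1, 26.3, 40.9 and 85.3 in corticothalamic neurons. It rose at every step in each subtype, the 3 P1 values lay above all 9 earlier ones, and P1 was 5.799-fold E15 in callosal, 5.02-fold in subcerebral and 4.98-fold in corticothalamic neurons. The difference between P1 and E15 was 2.32 ± 0.08 log2 units (limma adjusted p = 1.71e-06), and Grin1 was the one riser whose mean step was largest between E18 and P1. Between subtypes the differences were -0.07 ± 0.07, -0.14 ± 0.07 and -0.07 ± 0.07 for callosal against subcerebral, callosal against corticothalamic and subcerebral against corticothalamic neurons, none of them called (limma adjusted p = 0.48, 0.157 and 0.444).

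The glutamate-binding Grin2 subunits were low beside Grin1. Grin2b, the main one before birth in the rodent cortex, ranged over 2.195 to 5.65 FPKM in callosal, 2.73 to 7.27 in subcerebral and 2.66 to 9.31 in corticothalamic neurons, and no comparison called it. Its share of the summed NMDA FPKM was 2.56 to 4.76% over the 3 subtypes at P1, against 11.4 to 17.97% at E15. Grin2d was at 0.969, 0.729, 2.52 and 4.204 FPKM in callosal neurons, 0.466, 0.543, 1.39 and 1.63 in subcerebral neurons and 0.469, 0.919, 2.17 and 3.83 in corticothalamic neurons. It rose by 1.32 ± 0.17 log2 units at P1 against E15 (limma adjusted p = 0.000189) and had its higher value in callosal rather than subcerebral neurons at each stage (0.53 ± 0.15, limma adjusted p = 0.0268), a call that ended without E16, E18 or P1 (0.0618 to 0.146). Grin2a, the subunit that joins NMDA receptors mainly after birth, did not exceed 1.72 FPKM and Grin2c, mostly a cerebellar subunit, did not exceed 0.616 FPKM; neither was tested.

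Grin3a and Grin3b encode glycine-binding subunits that lower the calcium flow of NMDA receptors. Grin3a was at 0.373, 0.235, 0.581 and 0.377 FPKM in callosal neurons, 0.0913, 1.54, 8.598 and 15.9 in subcerebral neurons and 0.365, 0.670, 0.925 and 2.398 in corticothalamic neurons. The subcerebral values at E18 and P1 stood above all others, and at P1 Grin3a was the second NMDA gene of subcerebral neurons with 14.95% of the family's summed FPKM, against 0.420% in callosal and 2.53% in corticothalamic neurons. Callosal neurons differed from subcerebral by -1.73 ± 0.55 log2 units (limma adjusted p = 0.0462), and P1 from E15 by 1.76 ± 0.64 (limma adjusted p = 0.0365). The subtype call ended without E16, E18 or P1 (0.128 to 0.222), with 0.1 FPKM added in place of 1 and with no filter on low values, and the stage call ended without corticothalamic neurons (0.113).
Grin3b went the other way with age, at 1.97, 1.22, 0.915 and 0.567 FPKM in callosal neurons, 1.95, 1.27, 0.625 and 0.375 in subcerebral neurons and 1.75, 0.904, 0.487 and 0.297 in corticothalamic neurons. It fell at every step in all 3 subtypes (-1.04 ± 0.09 at P1 against E15, limma adjusted p = 2.64e-05), and the callosal excess over corticothalamic neurons of 0.24 ± 0.08 (limma adjusted p = 0.0431) ended without E16, E18 or P1 (0.116 to 0.226).

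All 6 metabotropic receptor genes tested were higher at P1 than at E15, a direction in which 33.8% of all genes were called, and they differed in the subtype that held the highest level. Grm4, Grm7 and Grm8 were below 1 FPKM in every E15 group and passed the filter only through later groups, so the filter favoured a rise in them. Grm2, a receptor that couples to inhibitory G proteins and in the adult sits mostly near release sites, was at 14.4, 37.4, 53.3 and 61.9 FPKM in callosal neurons, 1.66, 3.62, 6.83 and 13.2 in subcerebral neurons and 1.11, 1.97, 4.53 and 4.72 in corticothalamic neurons. The lowest callosal value was above every value of the other subtypes, and at P1 the callosal level was 4.68-fold the subcerebral and 13.1-fold the corticothalamic one. The callosal excess was 2.63 ± 0.17 log2 units over subcerebral (limma adjusted p = 7.15e-05) and 3.33 ± 0.17 over corticothalamic neurons (limma adjusted p = 1.28e-05), and Grm2 rose at every step in all 3 subtypes (1.96 ± 0.20, limma adjusted p = 5.4e-05). The subcerebral excess over corticothalamic neurons of 0.70 ± 0.17 (limma adjusted p = 0.0208) ended without E16, E18 or P1 (0.0797 to 0.117).

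Grm3, the closest relative of Grm2 and coupled to the same G proteins, ran opposite to it between subtypes. It was at 0.499, 1.52, 5.13 and 9.68 FPKM in callosal neurons, 0.376, 11.9, 22.4 and 24.8 in subcerebral neurons and 5.21, 19.3, 26.6 and 39.4 in corticothalamic neurons. Corticothalamic neurons had the highest value at each stage and callosal neurons the lowest from E16 on. Callosal neurons differed by -2.29 ± 0.36 log2 units from corticothalamic (limma adjusted p = 0.00237) and by -1.36 ± 0.36 from subcerebral neurons (limma adjusted p = 0.0247), the second call ending without E16, E18 or P1 (0.0919 to 0.15). The rise at P1 was 3.25 ± 0.42 (limma adjusted p = 0.000209). At P1 the callosal neurons held 48.5% Grm2 and 7.58% Grm3 of the summed metabotropic FPKM, subcerebral neurons 11.7 and 21.99%, and corticothalamic neurons 6.05 and 50.5%.

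Grm5 signals through phospholipase C and is the partner that Homer proteins bind. It was at 1.497, 4.01, 19.5 and 29.99 FPKM in callosal neurons, 3.15, 19.8, 37.2 and 41.7 in subcerebral neurons and 9.76, 18.4, 17.96 and 21.6 in corticothalamic neurons. The rise was 2.69 ± 0.53 log2 units at P1 against E15 (limma adjusted p = 0.00214), and callosal and subcerebral neurons rose at every step while corticothalamic neurons were nearly level from E16 on. No subtype comparison called it.

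Grm4, Grm7, Grm8 and Grm6 form the group that in the adult acts mainly at release sites, Grm6 being a retinal receptor that did not exceed 0.0207 FPKM here, was listed at 0 in all 3 subtypes at P1 and was not tested. Grm7 was at 0.202, 2.49, 12.05 and 18.3 FPKM in callosal neurons, 0.133, 3.91, 15.99 and 26.5 in subcerebral neurons and 0.416, 0.535, 1.56 and 2.53 in corticothalamic neurons. From E16 on, the corticothalamic value was the lowest and the subcerebral the highest. The subcerebral excess over corticothalamic neurons was 1.76 ± 0.48 log2 units (limma adjusted p = 0.0309), the callosal excess of 1.44 ± 0.48 was not called (limma adjusted p = 0.0532), and P1 exceeded E15 by 3.31 ± 0.56 (limma adjusted p = 0.000937).
Grm8 was at 0.0468, 0.418, 3.24 and 4.19 FPKM in callosal neurons, 0.00756, 1.81, 5.91 and 6.04 in subcerebral neurons and 0.0821, 0.522, 1.61 and 3.46 in corticothalamic neurons. It rose at every step in each subtype (2.39 ± 0.25, limma adjusted p = 6.29e-05) and was higher in subcerebral than in corticothalamic neurons at the 3 later stages (0.71 ± 0.21, limma adjusted p = 0.0396).
Grm4 was at 0.223, 0.290, 1.06 and 3.68 FPKM in callosal neurons, 0.0373, 0.283, 0.813 and 0.542 in subcerebral neurons and 0.0703, 1.19, 6.88 and 6.27 in corticothalamic neurons. The 2 highest values were those of corticothalamic neurons at E18 and P1. Subcerebral neurons differed from corticothalamic by -1.29 ± 0.39 (limma adjusted p = 0.0395), and P1 from E15 by 1.76 ± 0.45 (limma adjusted p = 0.00774), a call that ended without callosal neurons (0.0510). Each of the Grm4, Grm7 and Grm8 calls between subcerebral and corticothalamic neurons ended without E16, E18 or P1 (limma adjusted p 0.123 to 0.216) and with no filter on low values. The Grm7 and Grm8 calls also ended with 0.1 FPKM added in place of 1, and the Grm8 call with a filter at 5 FPKM.

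**Figure D3:**
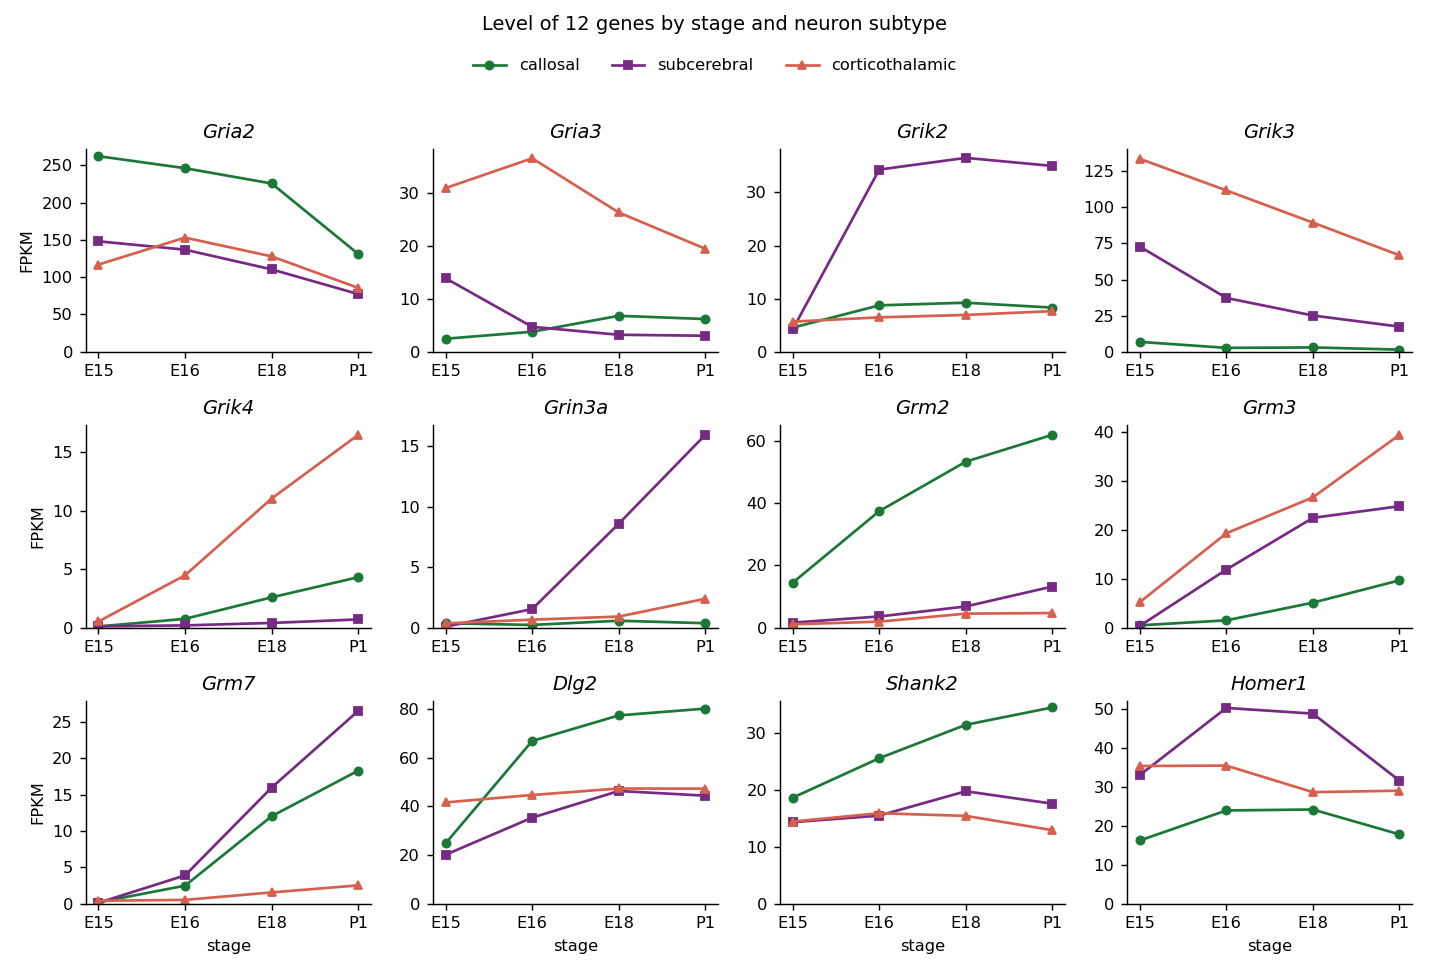
FPKM by stage (categories, evenly spaced) in callosal, subcerebral and corticothalamic neurons for 12 genes, 1 pooled value per point, with a linear axis from 0 in each panel. Grik3 is highest in corticothalamic neurons and falls, and Grm2 is highest in callosal neurons and rises. Grik2 and Grin3a stand out in subcerebral neurons after E15, and Grm3 rises at every step in all 3 subtypes.

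Among the Dlg scaffolds, which bind receptor tails directly, Dlg2 and Dlg1 were called between subtypes and Dlg4 and Dlg3 were not. Dlg4, the main one of the mature postsynaptic density, was at 82.9, 80.4, 69.1 and 92.9 FPKM in callosal neurons, 96.6, 69.3, 81.95 and 117 in subcerebral neurons and 92.3, 78.6, 77.4 and 109.8 in corticothalamic neurons. The 12 values overlapped between subtypes and stages, and no comparison called Dlg4. Dlg3 lay within 30.4 to 45.7 FPKM and was lower at P1 than at E15 in all 3 subtypes (-0.44 ± 0.07, limma adjusted p = 0.000573).

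Dlg2 was at 24.8, 66.9, 77.4 and 80.2 FPKM in callosal neurons, 20.2, 35.4, 46.4 and 44.4 in subcerebral neurons and 41.7, 44.7, 47.4 and 47.3 in corticothalamic neurons. From E16 on, every callosal value was above every subcerebral and corticothalamic value, whereas at E15 the corticothalamic value was the highest. Callosal neurons exceeded subcerebral by 0.69 ± 0.22 log2 units (limma adjusted p = 0.0454), and P1 exceeded E15 by 0.98 ± 0.25 (limma adjusted p = 0.00828). The subtype call ended without E16, E18 or P1 (0.148 to 0.197) and with no filter, and the stage call ended without callosal (0.0714) or subcerebral neurons (0.0985).
Dlg1, a scaffold also found along the secretory path of AMPA and NMDA receptors, was at 25.03, 17.9, 10.7 and 7.21 FPKM in callosal neurons, 25.5, 12.3, 10.5 and 8.85 in subcerebral neurons and 24.4, 25.1, 20.7 and 16.8 in corticothalamic neurons. The 3 subtypes lay within 24.4 to 25.5 FPKM at E15, and corticothalamic neurons kept the highest level from E16 on. Dlg1 fell by P1 in all 3 (-1.20 ± 0.22, limma adjusted p = 0.00154). The differences from corticothalamic neurons were -0.61 ± 0.19 for callosal and -0.67 ± 0.19 for subcerebral neurons (limma adjusted p = 0.0435 and 0.0352), and both calls ended without E16, E18 or P1 (0.108 to 0.206) and when the entry mKIAA4187, an older name of Dlg1, was added (0.0541 and 0.0530).

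Shank proteins form the deeper layer that ties the receptor complexes to actin. Shank1 was at 73.4, 81.5, 83.2 and 83.2 FPKM in callosal neurons, 81.97, 89.8, 81.9 and 68.4 in subcerebral neurons and 81.3, 89.96, 72.2 and 61.7 in corticothalamic neurons, and no comparison called it. Shank2 lay within 18.6 to 34.4 FPKM in callosal, 14.3 to 19.7 in subcerebral and 12.9 to 15.9 in corticothalamic neurons, and callosal neurons were the highest at each stage. The callosal excess was 0.66 ± 0.14 log2 units over subcerebral (limma adjusted p = 0.01) and 0.83 ± 0.14 over corticothalamic neurons (limma adjusted p = 0.00276), the first call ending without E16 (0.0693) or E18 (0.0696). Shank3 lay within 6.54 to 13.98 FPKM, rose by 0.66 ± 0.09 at P1 against E15 (limma adjusted p = 0.000314) and was called between no subtypes.

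Homer proteins link metabotropic receptors to Shank and to calcium release channels. Homer1 was at 16.2, 23.9, 24.2 and 17.8 FPKM in callosal neurons, 32.97, 50.2, 48.7 and 31.6 in subcerebral neurons and 35.3, 35.4, 28.6 and 28.98 in corticothalamic neurons. Every callosal value was below every value of the other subtypes, with a difference of -0.95 ± 0.13 log2 units from subcerebral (limma adjusted p = 0.00198) and -0.63 ± 0.13 from corticothalamic neurons (limma adjusted p = 0.00806), the second call ending without E16 (0.0509). Stage did not call it (-0.07 ± 0.15, limma adjusted p = 0.697).
Homer3 was at 19.2, 15.4, 11.2 and 8.87 FPKM in callosal neurons, 16.97, 10.6, 7.15 and 5.48 in subcerebral neurons and 12.9, 11.1, 8.82 and 6.02 in corticothalamic neurons. It fell at every step in all 3 subtypes (-1.16 ± 0.11, limma adjusted p = 4.6e-05), and callosal neurons were the highest at each stage, by 0.47 ± 0.10 over subcerebral and 0.45 ± 0.10 over corticothalamic neurons (limma adjusted p = 0.00977 and 0.00933). The first of these calls ended without E16, E18 or P1 (0.0593 to 0.0824) and the second without E16 (0.0719). Homer2 lay within 0.683 to 4.097 FPKM, rose by 0.82 ± 0.18 at P1 against E15 (limma adjusted p = 0.00395) and was lowest in corticothalamic neurons, by 0.58 ± 0.16 from callosal and 0.69 ± 0.16 from subcerebral neurons (limma adjusted p = 0.0237 and 0.0171). Those 2 calls ended without E16 or E18 (0.0787 to 0.131 and 0.0947 to 0.133), the second also without P1 (0.0744).

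Counted over the comparisons, callosal neurons differed from subcerebral in 12 of the 31 genes tested, 7 higher (Gria2, Gria4, Grin2d, Grm2, Dlg2, Shank2 and Homer3) and 5 lower (Grik2, Grik3, Grin3a, Grm3 and Homer1). That is 38.7%, against 29.3% of all 13946 genes called in that comparison (14.1% higher and 15.2% lower), with a median difference of 0.00 log2 units over the 31 and -0.01 over all. Callosal neurons differed from corticothalamic in 12 genes, 6 higher (Gria2, Grin3b, Grm2, Shank2, Homer2 and Homer3) and 6 lower (Gria3, Grik3, Grik4, Grm3, Dlg1 and Homer1), which is 38.7% against 31.3% of all genes (15.3% higher and 16% lower), with medians of 0.08 and 0.01. Subcerebral neurons differed from corticothalamic in 11 genes, 5 higher (Grik2, Grm2, Grm7, Grm8 and Homer2) and 6 lower (Gria3, Gria4, Grik3, Grik4, Dlg1 and Grm4), which is 35.5% against 27.5% of all genes (14.7% higher and 12.8% lower), with medians of -0.02 and 0.00. These shares are near the background and are no result about the set; the differences lay in single members. Grik3 and Grm2 were called in all 3 subtype comparisons, 11 genes in 2, 7 in 1 and 11 in none. The 3 comparisons share their samples in pairs, so their calls are not independent.
Of the 8 tested microglial genes, 7 were higher in callosal neurons in each of the comparisons with the other subtypes, and Aif1 was lower there than in corticothalamic neurons (1.88 to 5.76 FPKM in callosal, 5.41 to 8.34 in corticothalamic neurons). The summed microglial level was higher in callosal neurons from E16 on, while the E15 callosal sum of 5.08 FPKM lay below the lowest corticothalamic sum of 5.75. The microglial part in the callosal differences was not tested. Of the 9 tested genes of proliferating cells and radial glia, 6 were lower in subcerebral than in corticothalamic neurons and 4 were higher in callosal neurons when set against subcerebral, and their part was not tested either.

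**Figure D4:**
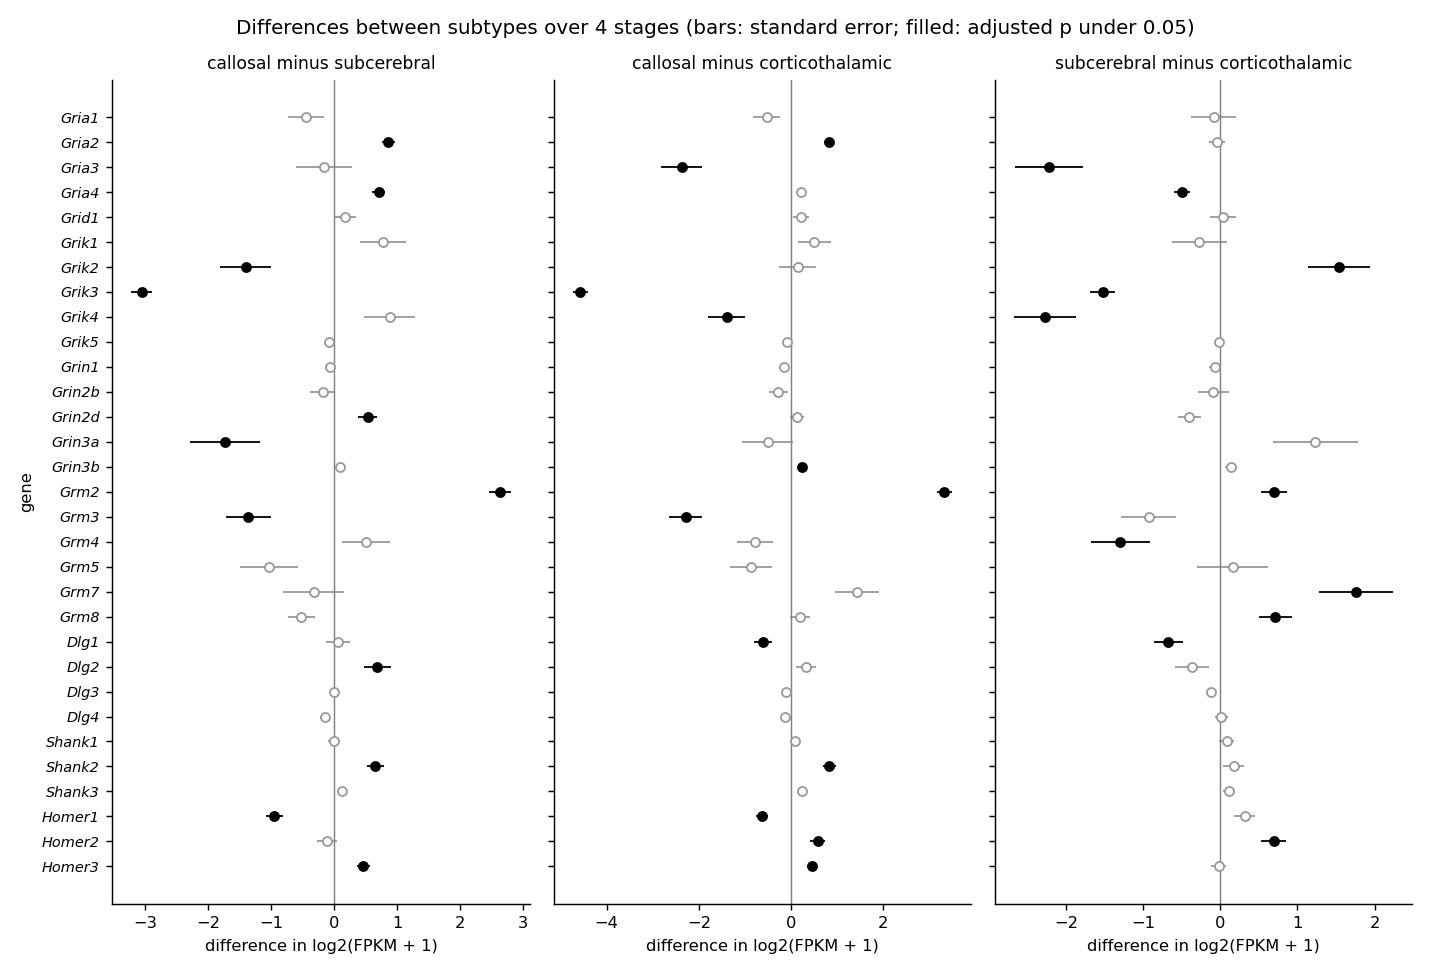
Difference in log2(FPKM + 1) for the 31 tested genes in callosal against subcerebral, callosal against corticothalamic and subcerebral against corticothalamic neurons, with SE bars and filled points where the limma adjusted p is under 0.05. Grik3 lies far left and Grm2 far right in both callosal panels, at -4.57 and 3.33 log2 units against corticothalamic neurons.

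Between stages, 23 of the 31 genes differed at P1 from E15, which is 74.2% against 67.4% of all genes. Of these, 16 were higher at P1, 51.6% of the genes tested against 33.8% of all genes, and 7 were lower (Gria1, Gria2, Grik3, Grin3b, Dlg1, Dlg3 and Homer3), 22.6% against 33.6% of all genes. The median difference was 0.66 log2 units over the 31 genes and 0.00 over all. Among the 16, Grik4, Grin2d, Grin3a, Grm4, Grm7 and Grm8 were below 1 FPKM in every E15 group and passed the filter only through later groups. Among the 7, Grin3b was below 1 FPKM in every P1 group and passed it through earlier ones. The filter favoured those directions in them, and all genes tested passed the same filter. The sum of the 7 NMDA genes was 89.8, 106.6 and 95.0 FPKM in callosal, subcerebral and corticothalamic neurons at P1, against 19.3, 24.0 and 23.9 FPKM at E15. The sum of the 7 metabotropic genes was 128, 113 and 77.99 FPKM in the same order at P1, against 16.9, 5.37 and 16.7 FPKM at E15. The AMPA sum ran the other way as deposited, at 156, 95.8 and 121 FPKM at P1, against 278, 186 and 172 FPKM at E15.

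The steps between neighbouring stages differed from gene to gene. Of the 16 risers, the mean step over the 3 subtypes was largest between E15 and E16 in 10, between E16 and E18 in 5 and between E18 and P1 in 1. Of the 7 that fell, 5 had their largest mean step between E15 and E16, 1 between E16 and E18 and 1 between E18 and P1. Gria4, Grid1, Grik4, Grin1, Grm2, Grm3, Grm7 and Grm8 rose at every step in all 3 subtypes, and Grin3b and Homer3 fell at every step in all 3. These steps span unequal times, and a stage cannot be told apart from any batch in which its samples were collected or prepared. Of the 9 tested genes of proliferating cells and radial glia, 7 were lower at P1 than at E15 and Hes1 was higher (6.83, 13.5 and 0.975 FPKM in callosal, subcerebral and corticothalamic neurons at P1, against 0.701, 0.366 and 1.07 at E15), and their part in the stage differences was not tested.

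**Figure D5:**
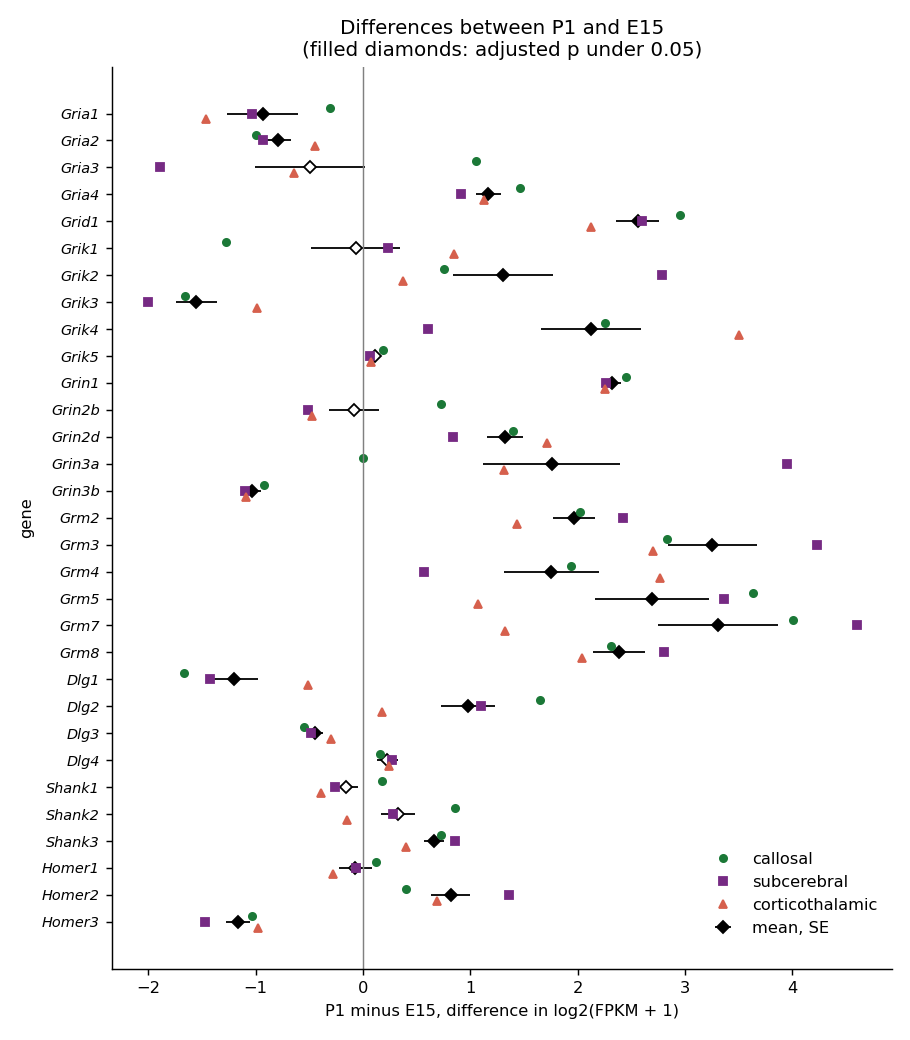
P1 minus E15 in log2(FPKM + 1) for the 31 tested genes, with 1 point for each subtype and a diamond for the fitted difference, filled where the limma adjusted p is under 0.05. Grm7 and Grm3 lie farthest right at 3.31 and 3.25, Grik3 farthest left at -1.55, and the Gria3 points lie on both sides of 0.

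Proteins that travel with these receptors or scaffolds were read from lists chosen by function, again with earlier results known. Of 29 tested genes for auxiliary subunits and receptor trafficking, 2 were higher and 6 lower in callosal than in subcerebral neurons (median -0.04 log2 units), 2 higher and 12 lower in callosal than in corticothalamic neurons (median -0.17), 2 higher and 7 lower in subcerebral than in corticothalamic neurons (median -0.22), and 10 higher and 4 lower at P1 than at E15 (median 0.51). Over the list, 27.6, 48.3, 31 and 48.3% were called in these comparisons in that order, against 29.3, 31.3, 27.5 and 67.4% of all genes. The share higher at P1 was 34.5%, against 33.8% of all genes. Neto2, an auxiliary subunit of kainate receptors, was at 21.8, 25.6, 30.2 and 39.1 FPKM in callosal neurons, 53.1, 45.8, 35.3 and 44.3 in subcerebral neurons and 111, 130.5, 110.0 and 117 in corticothalamic neurons. Every corticothalamic value was above all others, with differences of -1.997 ± 0.17 log2 units for callosal and -1.38 ± 0.17 for subcerebral neurons against corticothalamic (limma adjusted p = 0.000128 and 0.00232), the direction that Grik3 also took. Gsg1l, an AMPA receptor auxiliary subunit, was at 1.17 to 2.05 FPKM in callosal, 0.431 to 17.2 in subcerebral and 15.7 to 27.2 in corticothalamic neurons, with differences from corticothalamic neurons of -3.02 ± 0.64 for callosal and -2.56 ± 0.64 for subcerebral neurons (limma adjusted p = 0.00877 and 0.0228). Cnih3, a cornichon that binds AMPA receptors, was lower in callosal than in subcerebral (-1.72 ± 0.52, limma adjusted p = 0.0381) and corticothalamic neurons (-2.46 ± 0.52, limma adjusted p = 0.00855). Nptx1, a secreted pentraxin that gathers AMPA receptors, was at 12.7, 3.39, 0.986 and 1.03 FPKM in callosal neurons, 11.4, 1.54, 0.961 and 1.95 in subcerebral neurons and 11.04, 13.3, 18.4 and 30.8 in corticothalamic neurons (-2.20 ± 0.62 and -2.30 ± 0.62 against corticothalamic, limma adjusted p = 0.0272 and 0.0286). With stage, Nptxr rose most of those called, by 1.74 ± 0.38 (limma adjusted p = 0.00386).

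Of 38 tested genes for other postsynaptic density proteins, 2 were higher and 7 lower in callosal than in subcerebral neurons (median -0.15), 5 higher and 12 lower in callosal than in corticothalamic neurons (median -0.23), 4 higher and 6 lower in subcerebral than in corticothalamic neurons (median 0.02), and 21 higher and 8 lower at P1 than at E15 (median 0.44). In the same order 23.7, 44.7, 26.3 and 76.3% of the list were called, against 29.3, 31.3, 27.5 and 67.4% of all genes. The share higher at P1 was 55.3%, against 33.8% of all genes. Nrgn, a calmodulin-binding protein of dendritic spines, rose most, at 0.472, 5.51, 47.4 and 207 FPKM in callosal neurons, 1.39, 7.55, 87.04 and 368 in subcerebral neurons and 3.695, 19.5, 41.6 and 124 in corticothalamic neurons (6.38 ± 0.54 log2 units at P1 against E15, limma adjusted p = 2.67e-05). Camk2a, the kinase that phosphorylates AMPA receptors at active synapses, rose by 2.23 ± 0.20 (limma adjusted p = 3.16e-05) and was lower in callosal neurons, with differences of -0.98 ± 0.17 against subcerebral and -1.05 ± 0.17 against corticothalamic neurons (limma adjusted p = 0.0049 and 0.00265). Magi1, a membrane-associated scaffold, was lower in callosal neurons too, with differences of -1.51 ± 0.17 and -1.15 ± 0.17 in the same order (limma adjusted p = 0.000745 and 0.00156), and Baiap2, a Shank-binding regulator of actin, differed by -1.26 ± 0.13 against corticothalamic neurons (limma adjusted p = 0.000264).

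Among 11 tested genes for glutamate transport and metabolism, 1 was higher and 3 lower in callosal than in subcerebral neurons, 3 higher and 3 lower in callosal than in corticothalamic neurons, 4 higher and 1 lower in subcerebral than in corticothalamic neurons, and 3 higher and 1 lower at P1 than at E15. The shares called were 36.4, 54.5, 45.5 and 36.4%, against 29.3, 31.3, 27.5 and 67.4% of all genes, so fewer of these genes than of all genes were called between stages. The vesicular glutamate transporters split by subtype. Slc17a6 was at 4.31, 11.7, 11.7 and 21.2 FPKM in callosal neurons and did not exceed 1.27 FPKM elsewhere (3.02 ± 0.33 and 2.54 ± 0.33 log2 units against subcerebral and corticothalamic neurons, limma adjusted p = 0.000786 and 0.001). Slc17a7 was at 33.5, 19.6, 19.8 and 40.5 FPKM in callosal, 52.5, 23.9, 31.8 and 56.3 in subcerebral and 82.00, 55.1, 57.6 and 81.6 in corticothalamic neurons (-0.51 ± 0.11 and -1.30 ± 0.11 for callosal against the other two, limma adjusted p = 0.00975 and 9.71e-05).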

How the data were processed

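Gene expression in 24 poly(A) RNA-seq libraries of sorted neurons from CD1 mice was read from the deposited table of 12 columns, 1 for each stage and subtype, all of them mapped to a group. Per the submitters' processing notes, TopHat2, Cufflinks and the mm9 genome were used; the sources used here give no versions, annotation, scaling or way of joining the 2 libraries. The deposited values are taken as FPKM, from the tools named and the values, so depth per library is unknown and no counting interval can be given. RNA integrity numbers run from 6.3 to 9, per the labels' protocols. Poly(A) selection on partly degraded RNA favours 3′ ends. FPKM of related genes and of entries under older names depends on how reads were divided between them.

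In R 4.3.3, limma 3.58.1 with statmod 1.5.0 fitted log2(FPKM + 1) on stage plus subtype (variance trend, robust moderation, 6 residual degrees of freedom) for the 13946 genes that reached 1 FPKM in 2 or more columns, and p-values were adjusted by Benjamini-Hochberg over all of them (threshold 0.05). The fit was also run on simulated data with independent noise and an even callosal shift. Those data held no subtype difference that varied by stage, so the run cannot bear on the calls here. The genes and lists were chosen with earlier results of these data known. Every value was printed for members called with a difference of at least 1 log2 unit or reaching 50 FPKM in a group, and the others by range; from other lists at most 4 called genes per comparison were named. Alternatives were a pseudocount of 0.1, no filter, a filter at 5 FPKM, median-ratio scaling, quantile normalization, no trend, each stage, subtype or column left out, and, chosen after seeing the data, older-name entries added to their gene. Sequences are from RefSeq (GRCm38.p6). One of the genes used to check the labels is not reported here.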

Additional observations from a re-analysis of the deposited data

Results flagged for a closer look

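For 5 genes the same contrast ran in opposite directions in 2 settings, by at least 0.5 log2 units each way. Each setting holds 1 pooled value per group, so none of these differences was tested.

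At P1 against E15, Gria3 differed by 1.05 log2 units in callosal and -1.89 in subcerebral neurons, 2.94 apart, and by -0.64 in corticothalamic neurons, 1.69 from the callosal change. The callosal minus subcerebral difference of Gria3 was 0.89 at E18 and -2.10 at E15, 2.99 apart. Grik1 differed at P1 against E15 by -1.28 in callosal and 0.85 in corticothalamic neurons, which is -2.12 for callosal relative to corticothalamic neurons; the E15 callosal group has the highest value of 7 of 9 interneuron genes, whose part in this was not tested.

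Grin2b differed at P1 against E15 by 0.72 in callosal and -0.51 in subcerebral neurons, 1.23 apart. Seen between subtypes, its callosal minus subcerebral difference was 0.50 at P1 and -0.73 at E15, again 1.23 apart, and its callosal minus corticothalamic difference was 0.53 at P1 and -0.67 at E15, 1.20 apart. The subcerebral minus corticothalamic difference of Grm5 was 1.01 at E18 and -1.37 at E15, 2.38 apart. The callosal minus corticothalamic difference of Dlg2 was 0.75 at P1 and -0.72 at E15, 1.47 apart.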

How the results depend on the processing

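The main counts of genes called were 12 for callosal against subcerebral, 12 for callosal against corticothalamic, 11 for subcerebral against corticothalamic and 23 for P1 against E15. With a stage, subtype or single value left out they ranged over 5 to 14, 5 to 16, 1 to 15 and 20 to 25. With no filter on low values, 7 genes were called between subcerebral and corticothalamic neurons. No direction reversed in 1372 alternative values of single genes (each call, and each difference of at least 1 log2 unit that was not called); 1151 kept their side of the threshold, 215 lost it and 6 gained it. Of the 58 calls, 28 held under every alternative that gave a value: Gria2, Gria4, Grik3, Grm2 and Homer1 between callosal and subcerebral neurons, Gria2, Grik3, Grm2, Grm3 and Shank2 between callosal and corticothalamic neurons, Grik3 between subcerebral and corticothalamic neurons, and 17 between stages. Leaving out E16, E18 or P1 ended 24, 21 and 19 calls, no filter ended 12, 0.1 FPKM added ended 4, and older-name entries ended 2. Leaving out E15 ended no subtype call. Among losses not named above, no filter ended the Grik2 call between callosal and subcerebral and the Grik4 call between callosal and corticothalamic neurons. It also ended both Dlg1 subtype calls and the Gria1, Grik2 and Grin3a stage calls. Adding 0.1 FPKM ended the Grm3 call between callosal and subcerebral neurons, and median-ratio scaling the Grin3b subtype call. With older-name entries added, 7 genes were called higher and 5 lower in callosal than in corticothalamic neurons, against 6 and 6. A call was thus gained there while the Dlg1 call ended. Fewer values were fitted whenever a stage was dropped, E15 included. Between callosal and subcerebral neurons, 8.02% of all genes were called once E16 was dropped, against 29.3% with all values. Dropping E15 instead gave 44.7%. Between subcerebral and corticothalamic neurons, dropping E15 gave 45.3%, and dropping a later stage 1.89 to 8.07%, against 27.5% with all values. Between callosal and corticothalamic neurons, dropping E15 gave 32.8%, against 31.3%. Why E15 differed from the later stages here was not tested. Leaving out 1 of the 12 values ended 5, 4, 9 and 3 calls in the 4 comparisons in that order, with limma adjusted p of up to 0.161. The other lists were not refitted. No paired analysis was possible because the table holds 1 pooled value per group and its columns carry no replicate numbers. Depth is unknown, and values below 1 FPKM are the least certain.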
